A study of Drosophila melanogaster with 9 samples.

Results

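Cytosolic ribosomal protein (RP) genes were taken as all genes whose name starts with RpL or RpS in the deposited tables of embryonic RNA-seq, with the mitochondrial ribosomal proteins (mRpL and mRpS) left out. This rule found 91 of the 14909 genes listed. Of these, 78 were major copies, 47 for the large and 31 for the small ribosomal subunit. Another 8 were minor copies, that is the less abundant gene of a pair whose names end in a or b, and 5 carried the suffix -like. RNA came from whole Drosophila melanogaster embryos, collected 5 to 16 h after egg laying at one temperature, with 3 biological replicates of each genotype. KahΔATG carries a CRISPR/Cas9 deletion of most of exon 2 of the Snail family gene Kahuli (Kah), including its predicted start codon. KahΔZnF carries an in-frame CRISPR/Cas9 deletion of the zinc-finger region of Kah, and w1118 was the control strain. As the methods are worded, the replicates of a genotype may share one embryo collection, and the labels do not say that mutants and controls were collected together. Collection and genotype therefore cannot be told apart, and p-values measure the spread between these samples only, which may be technical.

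The ribosome reads mRNA on its small subunit and joins amino acids on its large subunit. Its proteins are made in near equal numbers, and their mRNAs are among the most abundant of a growing cell. In Drosophila many RP genes are known as Minute genes, because loss of a single copy slows development and thins the bristles. Most RPs are encoded by a single gene in the fly, but several have a duplicate. RpS5b and RpS19b are known as duplicates used mainly in the germline, and RpL22-like is best known from the testis. Some genes carry an RP-like name but encode assembly factors, which is known for the yeast relatives of RpL24-like (Rlp24) and RpLP0-like (Mrt4).

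Each library held 17990440 to 20036805 reads on genes, recovered from the deposited normalized counts. Kah itself had 1683, 1521 and 1591 normalized counts in KahΔATG, 756, 666 and 753 in KahΔZnF and 368, 354 and 367 in w1118, so the transcript was higher in both mutants than in the control, by 2.14 ± 0.07 on the log2 scale in KahΔATG and by 0.998 ± 0.09 in KahΔZnF (SE). Mitochondrial transcripts divided the libraries. They took 15.3 to 16.6% of reads in 6 libraries (all of KahΔATG, KahΔZnF replicates 2 and 3 and w1118 replicate 1) and 8.67 to 11.2% in KahΔZnF replicate 1 and w1118 replicates 2 and 3. Against the control, 1 of 3 muscle markers was called lower in KahΔATG and 3 of 3 in KahΔZnF, and 2 of 3 neuronal markers were called lower in KahΔZnF. Hml (hemocytes) was called lower and btl (trachea) higher in both mutants. GATAe (endoderm) was called lower and shg (epithelia) higher in KahΔZnF only. The markers repo (glia), srp (hemocytes and fat body) and grh (epithelia) were not called. Of all genes tested, 14.7% were called higher and 10.6% lower in KahΔATG, and 23.8% and 25.5% in KahΔZnF. Of 3 early embryonic markers tested, bcd was called higher, by 2.28 and 2.51 on the log2 scale. The part of tissue makeup or stage in the RP values was not tested. In whole embryos, fewer cells of a type and less RNA per cell cannot be told apart.

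All 91 RP genes were listed in both tables, and 88 passed the filter on low values (at least 10 normalized counts in at least 3 libraries). RpL7-like, RpS28-like and RpS28a did not. RpL7-like had 0, 0 and 4 reads in KahΔATG, 2, 0 and 0 in KahΔZnF and 0 in all w1118 libraries. RpS28-like had 6, 0 and 0 reads in KahΔATG, 1, 2 and 2 in KahΔZnF and 1, 0 and 0 in w1118. RpS28a had 1, 0 and 0 reads in KahΔATG, 3, 13 and 5 in KahΔZnF and 1, 0 and 3 in w1118. These 3 genes were practically silent beside their major partners, and no fold is given for them. RpL10Ab was the only listed gene of its name and was kept with the major copies.

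On the scale of reads per gene length (TPM, computed with the gene lengths of the tables and brought to one total per library), the 78 major copies ranged over about one order of magnitude. RpL41, which encodes a very short basic peptide of the large subunit, was the most abundant, with a mean of 11563 TPM over all 9 libraries and rank 4 among all genes. RpL27A (9598 TPM), the stalk protein gene RpLP2 (8913 TPM), RpL23 (5867 TPM) and RpS27A (5782 TPM), which encodes a fusion of ubiquitin with a small-subunit protein, came next. RpS5a was the lowest major copy, at 1235 TPM. The minor and -like genes that passed the filter lay below every major copy. RpL24-like, at 638 TPM, and RpS14b, at 553 TPM, were the highest of them, and RpS10a (3.23 TPM) and RpL22-like (3.07 TPM) the lowest. The RP genes were spread over the genome, with 19 on chromosome arm 2L, 21 on 2R, 14 on 3L, 22 on 3R, 14 on X and 1 on chromosome 4.

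The first question was how much of the embryonic mRNA the RP genes took up together. RP reads made up 12.2, 11.5 and 12.6% of gene reads in KahΔATG, 12.8, 13.4 and 13.7% in KahΔZnF and 14.1, 13.5 and 13.6% in w1118. The mean share was 12.1% ± 0.52 in KahΔATG, 13.3% ± 0.47 in KahΔZnF and 13.7% ± 0.36 in w1118 (SD, n = 3 each). All KahΔATG libraries lay below all KahΔZnF and w1118 libraries, while KahΔZnF and w1118 overlapped. When reads of mitochondrial genes were left out of the total, the share was 14.4% ± 0.69 in KahΔATG, 15.4% ± 1.28 in KahΔZnF and 15.7% ± 1.05 in w1118 (SD, n = 3 each), with KahΔATG at 13.6 to 14.9%. That range overlapped the KahΔZnF range (14.0 to 16.3%) and reached up to the lower end of the w1118 range (14.9 to 16.9%).

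The balance of the subunits also differed between the genotypes. Small-subunit genes held 39.7, 39.3 and 39.0% of the reads of major copies in KahΔATG, 40.2, 40.4 and 40.7% in KahΔZnF and 38.6, 38.7 and 38.8% in w1118. No library of one genotype overlapped those of another, and the order was KahΔZnF, KahΔATG, w1118. Minor copies together held 0.518 to 0.561% of RP reads in KahΔATG, 0.614 to 0.617% in KahΔZnF and 0.416 to 0.473% in w1118. The -like genes held 0.306 to 0.314% in KahΔATG, 0.335 to 0.374% in KahΔZnF and 0.241 to 0.244% in w1118. Both small classes thus lay higher in every mutant library than in any control library.

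**Figure D1:**
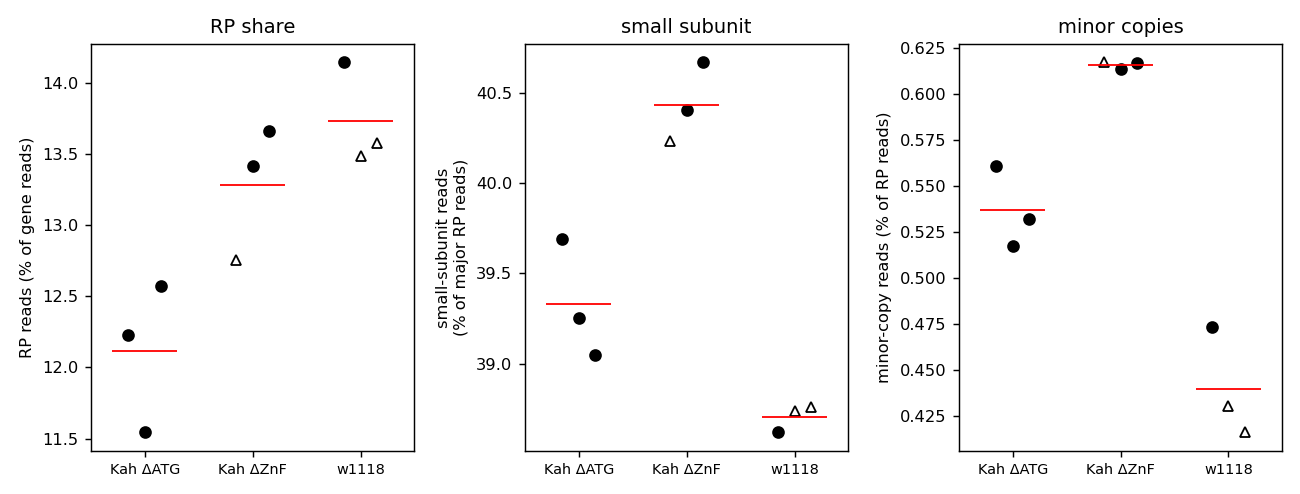
Share of RP reads among gene reads (left), of small-subunit reads among major RP reads (middle) and of minor-copy reads among RP reads (right), in percent, for each of 9 libraries of KahΔATG, KahΔZnF and w1118. Filled circles are the 6 libraries with 15.3% or more mitochondrial reads, open triangles the 3 others, red lines group means, and the axes do not start at 0. The small-subunit share was 39.0 to 39.7% in KahΔATG, 40.2 to 40.7% in KahΔZnF and 38.6 to 38.8% in w1118.

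In KahΔATG embryos the major copies lay slightly below the control as a group, and single genes differed little. Of the 78 major copies, 61 had a negative and 17 a positive log2 fold change, with a median of -0.14 and a range of -0.53 to 0.37, against a median of -0.02 over all 10972 genes tested. The median was -0.18 for the 47 large-subunit genes and -0.10 for the 31 small-subunit genes. A gene was called at an adjusted p of at most 0.05 (limma on log2 of the normalized count plus 1, Benjamini-Hochberg over all genes tested) with a log2 fold change of at least 0.59, a fold of 1.5. By this rule 0 RP genes were called higher and 0 lower, where 14.7% of all genes tested were called higher and 10.6% lower. DESeq2 and edgeR on the recovered reads also called 0 in either direction. At an unadjusted p of 0.05 by limma, 9 of the 88 RP genes tested were higher and 40 lower, where 3142 and 3102 of all 10972 genes tested were.

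With the fold limit dropped, 34 of the 78 major copies were lower at the adjusted p limit (limma), which is 43.6% against a background of 24.7% lower among all genes tested, and 1 was higher against a background of 26.1%. In 40 of the 78 major copies all 3 KahΔATG libraries lay below all w1118 libraries, and in 1 they lay above, where the background was 28.6% below and 29.6% above. Among the 321 genes at least as abundant as the lowest major copy, 30.5% were lower and 37.7% higher at the same limit. The lower group held 23 large-subunit genes and 11 small-subunit genes. Without single libraries 26 to 33 were lower, and 7 were higher without w1118 replicate 1 and 3 without KahΔATG replicate 2. Scaling by library totals moved the median over all genes to -0.10 and that of the major copies to -0.22, so the distance between both stayed at -0.12.

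The large-subunit gene RpL36A had the lowest fold change of the major copies in both mutants. It had 11490, 10763 and 11970 normalized counts in KahΔATG, 10761, 12114 and 12722 in KahΔZnF and 15913, 17639 and 15923 in w1118 (all 9 libraries scaled together, as for every value per library from here on). Every mutant library lay below every control library. The log2 fold change was -0.53 ± 0.07 (SE, adjusted p 0.00019, limma) in KahΔATG and -0.47 ± 0.09 (adjusted p 0.00076) in KahΔZnF, on the log2(value + 1) scale. Its exons overlap those of CCDC53 on the other strand, and the strand setting of the counting is not given in the sources used here.

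RpL40 encodes the other fusion of ubiquitin with a ribosomal protein, on the large subunit. It had 17800, 17629 and 18720 normalized counts in KahΔATG, 18222, 17118 and 17353 in KahΔZnF and 23468, 23815 and 24080 in w1118. The groups were far apart with little spread, and both mutants lay close to each other. The log2 fold change was -0.39 ± 0.06 (SE, adjusted p 0.0005, limma) in KahΔATG and -0.43 ± 0.08 (adjusted p 0.00042) in KahΔZnF. RpS27A, the small-subunit ubiquitin fusion, had log2 fold changes of -0.12 ± 0.07 in KahΔATG and 0.08 ± 0.11 in KahΔZnF (SE, adjusted p 0.21 and 0.51), and with the division of the libraries by mitochondrial reads in the model the KahΔATG value of RpS27A was -0.24 (adjusted p 0.029). RpS30, whose protein is made as a fusion with a ubiquitin-like protein, was lower in KahΔATG at the adjusted p limit (-0.29 ± 0.06, adjusted p 0.0035) and had -0.14 ± 0.08 in KahΔZnF (adjusted p 0.14).

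RpS12 is a small-subunit protein known in Drosophila for its part in cell competition upstream of the transcription factor Xrp1. It had 20946, 19179 and 21260 normalized counts in KahΔATG, 19033, 21921 and 21632 in KahΔZnF and 29364, 25654 and 26018 in w1118, with no overlap between mutants and control. The log2 fold change of RpS12 was -0.39 ± 0.08 (SE, adjusted p 0.0029, limma) in KahΔATG and -0.37 ± 0.09 (adjusted p 0.0048) in KahΔZnF. RpS12 was the only small-subunit gene among the 11 major copies lower in KahΔZnF at the adjusted p limit.

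RpLP0, RpLP1 and RpLP2 encode the stalk, the arm of the large subunit that contacts the elongation factors. RpLP0 had 24225, 24660 and 26126 normalized counts in KahΔATG, 25721, 26888 and 27347 in KahΔZnF and 32159, 31143 and 32059 in w1118, a log2 fold change of -0.34 ± 0.06 (SE, adjusted p 0.002, limma) and -0.25 ± 0.08 (adjusted p 0.015). All mutant libraries were below all control libraries. RpLP1 had -0.15 ± 0.06 in KahΔATG and -0.01 ± 0.08 in KahΔZnF, and RpLP2 had -0.04 ± 0.12 and 0.16 ± 0.19, and none of these passed the test. With the mitochondrial division in the model RpLP2 was lower in KahΔATG, with -0.41 (adjusted p 0.016).

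In KahΔZnF embryos the major copies were centred on the control but spread wider. Their median log2 fold change was 0.00, as over all 10957 genes tested, with 39 positive and 39 negative and a range of -0.47 to 0.67. The median was -0.01 in the large and 0.08 in the small subunit. The 315 other genes at least as abundant as the lowest major copy had a higher median, 0.23. Of these 315 genes, 51.1% were higher and 27.9% lower at the adjusted p limit (limma). Over all RP genes 5 were called higher, against a background of 23.8%, and 1 was called lower, against a background of 25.5%. The 5 were RpS3A, RpS5b, RpS19b, RpS15Ab and RpLP0-like, so that RpS3A was the only major copy among them, and the lower one was RpL22-like.

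At the adjusted p limit alone (limma), 9 major copies (11.5%) were higher and 11 (14.1%) lower in KahΔZnF, where 35.3% of all genes tested were higher and 35.3% lower. Here the large subunit supplied 2 of the higher and 10 of the lower genes, and the small subunit 7 of the higher and 1 of the lower. These counts moved with single libraries, and the split by subunit was not recounted there. They were 17 higher and 11 lower without KahΔZnF replicate 1, 5 and 7 without KahΔZnF replicate 2 and 4 and 9 without KahΔZnF replicate 3. Without w1118 replicate 2 they were 4 and 7, without w1118 replicate 3 they were 5 and 6, and with the replicate number as a block they were 5 and 6. All KahΔZnF libraries lay above all w1118 libraries in 12 of the 78 major copies and below in 23, with backgrounds of 37.4% above and 37.1% below. Both shares of the RP genes were thus under the background. Scaling by library totals moved the median over all genes to -0.12 and that of the major copies to -0.11, and 25 of 78 were then positive.

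**Figure D2:**
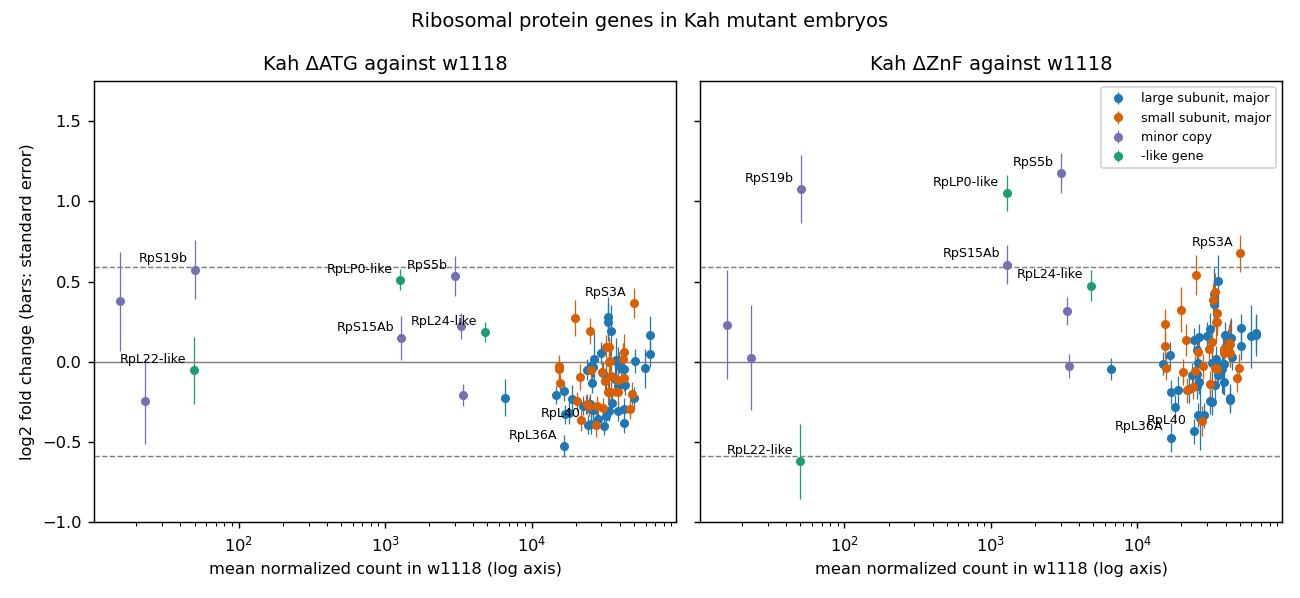
Log2 fold change (y axis, bars give the SE) of the 88 tested RP genes in KahΔATG (left) and KahΔZnF (right) against their mean normalized count in w1118 (x axis, log scale), with dashed lines at ±0.59. In KahΔATG the major copies run from -0.53 to 0.37 with a median of -0.14, and in KahΔZnF from -0.47 to 0.67 with a median of 0.00, while RpS5b, RpS19b and RpLP0-like lie highest in both.

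RpS3A is a small-subunit protein gene and the only RP gene on chromosome 4 (65225 to 67207, minus strand, in the coordinates of the tables, which equal the Ensembl BDGP6 annotation for this gene). It had 65950, 59222 and 63707 normalized counts in KahΔATG, 68494, 83750 and 82971 in KahΔZnF and 54892, 45348 and 47344 in w1118. All mutant libraries lay above all controls. The log2 fold change was 0.67 ± 0.12 (SE, adjusted p 0.0004, limma) in KahΔZnF and 0.37 ± 0.09 (adjusted p 0.0097) in KahΔATG, where RpS3A was the only major copy higher at the adjusted p limit. The genes of chromosome 4 as a whole had a median of -0.09 in KahΔATG and -0.09 in KahΔZnF. RpS3A was also higher in the libraries rich in mitochondrial reads, by 0.28 within KahΔZnF and 0.24 within w1118, and its fold against w1118 within the rich and the poor libraries was 0.60 and 0.56. When that division was added to a model of the 9 libraries, it was 0.58 in KahΔZnF, under the fold limit, and 0.18 (adjusted p 0.062) in KahΔATG.

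Other small-subunit genes were higher in KahΔZnF without reaching the fold limit. RpS28b had 28468, 25154 and 30274 normalized counts in KahΔATG, 28953, 38986 and 40200 in KahΔZnF and 25809, 23637 and 24312 in w1118. RpS28b had a log2 fold change of 0.54 ± 0.12 (SE, adjusted p 0.0026, limma) in KahΔZnF and 0.19 ± 0.08 (adjusted p 0.081) in KahΔATG, and KahΔZnF replicate 1 stood well below the other 2 replicates. RpS29, RpS10b and RpS6, the substrate of S6 kinase, had 0.44 ± 0.11, 0.39 ± 0.10 and 0.25 ± 0.08 in KahΔZnF (adjusted p 0.0055, 0.0068 and 0.02), and in KahΔATG 0.09 ± 0.07, 0.09 ± 0.07 and -0.09 ± 0.06, none of which passed.

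RpL41 and RpL36 were the 2 large-subunit genes that were higher in KahΔZnF at the adjusted p limit. RpL41 had 37787, 30880 and 52171 normalized counts in KahΔATG, 35970, 55110 and 58998 in KahΔZnF and 34798, 32665 and 36317 in w1118, so that the mutant libraries overlapped the controls. Its log2 fold change was 0.50 ± 0.16 (SE, adjusted p 0.018, limma) in KahΔZnF, but 0.71 among the libraries rich in mitochondrial reads and 0.06 among the poor ones. RpL36 had 0.42 ± 0.16 (adjusted p 0.034), and likewise 0.41 and 0.14. Leaving out KahΔZnF replicate 1, the only KahΔZnF library poor in mitochondrial reads, raised the RP genes called higher in KahΔZnF to 8, with RpS28b (0.69), RpL41 (0.73) and RpL36 (0.62) added.

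The mutants differed from each other in a direction that nearly all major copies shared. In KahΔZnF against KahΔATG, 75 of 78 had a positive log2 fold change, where 5848 of all 10855 genes tested did. Their median was 0.16 (0.14 in the large and 0.19 in the small subunit), against 0.04 over all genes tested. The 386 other genes at least as abundant as the lowest major copy had a median of 0.18, with 268 positive, so the size of the shift was not particular to RP genes. At the adjusted p limit alone 18 major copies (23.1%) were higher and 0 lower (limma), both under the backgrounds of 27.4% higher and 24.3% lower. Of the 386 abundant genes, 47.4% were higher and 18.7% lower at that limit. All KahΔZnF libraries lay above all KahΔATG libraries in 43 major copies (55.1%) and below in 0, with backgrounds of 32.8% and 27.6%. At an unadjusted p of 0.05 by limma, 29 were higher and 1 lower, where 3387 and 2937 of the 10855 genes tested were. The count of 18 rested on single libraries. It was 4 without KahΔATG replicate 1, 3 without KahΔATG replicate 2 and 9 without KahΔATG replicate 3. It was 49 without KahΔZnF replicate 1, 7 without KahΔZnF replicate 2 and 3 without KahΔZnF replicate 3. In these fits 68 to 76 of the 78 values were positive. The count was 2 with totals that leave out mitochondrial genes, and 51 with the mitochondrial division in a model of all 9 libraries, where the model without it gave 27. No major copy reached the fold limit by limma, edgeR or DESeq2, and over all RP genes 1 was called higher (background 5.72%) and 0 lower (background 12.9%). By edgeR 1 RP gene, RpL22-like, was called lower, and by DESeq2 0 were. Scaling by the total without mitochondrial genes lowered the median to 0.09, with -0.03 over all genes and 64 of 78 positive.

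RpL3, a core protein close to the peptidyl transferase centre, showed the largest difference between the mutants among the major copies. It had 42678, 42253 and 41492 normalized counts in KahΔATG, 59678, 54849 and 56604 in KahΔZnF and 46484, 51190 and 50960 in w1118. The control lay between the mutants, and no 2 groups overlapped. The log2 difference of KahΔZnF from KahΔATG was 0.44 ± 0.08 (SE, adjusted p 0.0012, limma), and against w1118 RpL3 had -0.23 ± 0.07 in KahΔATG (adjusted p 0.018) and 0.21 ± 0.09 in KahΔZnF (adjusted p 0.062). With the mitochondrial division in the model these were -0.15 (adjusted p 0.069) and 0.24 (adjusted p 0.0014). RpL3 shares exon sequence with an antisense RNA and a snoRNA gene. RpL38 lay at the other end, with -0.36 ± 0.15 (adjusted p 0.057), and RpL40 (-0.04) and RpL24 (-0.02) were the other major copies with a negative value. Without KahΔZnF replicate 1, RpL38 had -0.15 and RpL24 was positive, with 0.20.

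Apart from RpS3A, the RP genes with the largest rises were duplicates and -like genes. Among the 7 minor copies tested, the median log2 fold change was 0.22 in KahΔATG and 0.31 in KahΔZnF, 3 were called higher in KahΔZnF (2 by edgeR and 2 by DESeq2) and 0 were called lower in either mutant by any of these tools. At an unadjusted p of 0.05 by limma, 1 was lower in KahΔATG and 0 in KahΔZnF, where 3102 of 10972 and 3955 of 10957 genes tested were. The 3 called are 42.9% of 7 genes, where 23.8% of all genes tested were called higher and 25.5% lower in KahΔZnF. In 4 of the 8 minor copies (50%) all KahΔZnF libraries lay above all controls and in 0 below, where the background was 37.4% above and 37.1% below.

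RpS5b (3R, 14900432 to 14901563, minus strand) is the duplicate of RpS5a. It had 4553, 3684 and 4458 normalized counts in KahΔATG, 5769, 6743 and 7352 in KahΔZnF and 3495, 2779 and 2574 in w1118, with no overlap between any of the groups. Its log2 fold change was 1.18 ± 0.13 (SE, adjusted p 1.4e-05, limma) in KahΔZnF and 0.53 ± 0.12 (adjusted p 0.0062) in KahΔATG. With the mitochondrial division in the model the KahΔATG value was 0.30 (adjusted p 0.019) and the KahΔZnF value 1.06. KahΔZnF exceeded KahΔATG by 0.65 ± 0.10 (adjusted p 0.00031), the one RP gene called between the mutants. That difference was 0.57 without KahΔZnF replicate 3 and 0.55 without KahΔATG replicate 2, both under the fold limit. RpS5a went the other way in KahΔATG, with 16405, 15818 and 17623 normalized counts in KahΔATG, 18252, 19308 and 19248 in KahΔZnF and 20581, 21443 and 22464 in w1118, and a log2 fold change of -0.37 ± 0.06 (adjusted p 0.0013) in KahΔATG and -0.18 ± 0.08 (adjusted p 0.062) in KahΔZnF. RpS5b reads were therefore 18.9 to 21.7% of the pair in KahΔATG, 24.0 to 27.6% in KahΔZnF and 10.3 to 14.5% in w1118.

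RpS19b (3R, 23932729 to 23933530, minus strand) was far weaker than RpS19a, with 67.7, 74.0 and 79.0 normalized counts in KahΔATG, 81.3, 121 and 116 in KahΔZnF and 48.9, 41.4 and 58.7 in w1118. All mutant libraries lay above the controls. Its log2 fold change was 1.08 ± 0.21 (SE, adjusted p 0.00092, limma) in KahΔZnF and 0.57 ± 0.18 (adjusted p 0.027) in KahΔATG, where it was 0.39 and did not pass (adjusted p 0.18) with the mitochondrial division in the model. RpS19a had -0.06 ± 0.09 in KahΔZnF (adjusted p 0.59) and was lower in KahΔATG, with -0.28 ± 0.06 (adjusted p 0.0035). RpS19b made up 0.335 to 0.386% of the pair in KahΔATG, 0.380 to 0.521% in KahΔZnF and 0.165 to 0.243% in w1118.

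RpS5b and RpS19b are known from germ cells, so germ cell markers are given beside them. Of 6 markers, 4 were called higher in KahΔATG and 4 in KahΔZnF, with vas higher by 0.84 ± 0.11 and 0.76 ± 0.12 on the log2 scale (SE), and the difference between the mutants in vas was -0.07 ± 0.10 (adjusted p 0.57, limma). The others called higher in both were nos, pgc and bam. The marker gcl was lower at the adjusted p limit, by -0.39 ± 0.07 in KahΔATG (adjusted p 0.0016) and -0.57 ± 0.09 in KahΔZnF (adjusted p 0.00023), and ovo had 0.06 ± 0.07 (adjusted p 0.5) and 0.24 ± 0.09 (adjusted p 0.035). The summed level of the 6 markers was 3616 to 3894 normalized counts in KahΔATG, 3356 to 3899 in KahΔZnF and 3750 to 4189 in w1118. Most of that sum came from gcl, with means of 2048, 1812 and 2706, and ovo, with 1070, 1217 and 1030, so it does not show the markers that were higher. Of 4 markers of ovary and adult female tissue found, the yolk protein genes Yp1 and Yp2 and the eggshell gene Vm26Aa had at most 10.8 normalized counts in any library. The yolk protein gene Yp3 had 13.6 to 26.0 in KahΔATG, 48.7 to 63.8 in KahΔZnF and 38.6 to 51.8 in w1118. Yp3 was called lower in KahΔATG (-1.15 ± 0.28, adjusted p 0.0078) and higher in KahΔZnF than in KahΔATG (1.38 ± 0.27, adjusted p 0.0013). The part of germ cells in the RP values was not tested.

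RpS15Ab had 1560, 1257 and 1423 normalized counts in KahΔATG against 1593, 1150 and 1125 in w1118 on the scale of the KahΔATG table. On that of the KahΔZnF table it had 1849, 1979 and 2030 in KahΔZnF against 1579, 1169 and 1142 in w1118. KahΔZnF lay above the control, and KahΔATG overlapped the control. The log2 fold change was 0.61 ± 0.12 (SE, adjusted p 0.0011, limma) in KahΔZnF, barely over the fold limit, and 0.15 ± 0.14 (adjusted p 0.4) in KahΔATG. By edgeR (0.56) and DESeq2 (0.58), and without KahΔZnF replicate 3 (0.58), w1118 replicate 2 (0.54) or w1118 replicate 3 (0.52), it fell under that limit. RpS15Aa had 0.06 ± 0.08 in KahΔZnF.

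RpS14a and RpS14b stand next to each other on X and are near-identical copies, so the split of reads between them is uncertain. RpS14b had 4091, 3449 and 3785 normalized counts in KahΔATG, 3698, 4230 and 4169 in KahΔZnF and 3481, 3024 and 3249 in w1118. RpS14b had a log2 fold change of 0.31 ± 0.09 (SE, adjusted p 0.0077, limma) in KahΔZnF and 0.22 ± 0.08 (adjusted p 0.047) in KahΔATG, against 0.10 ± 0.08 and -0.05 ± 0.06 for RpS14a. With the mitochondrial division in the model the KahΔATG value of RpS14b was 0.10 and did not pass (adjusted p 0.31). As a share of the pair, RpS14b had 19.9 to 21.4% in KahΔATG, 19.8 to 20.3% in KahΔZnF and 16.9 to 18.6% in w1118, with both mutants above the control.

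Not all minor copies were higher in the mutants. RpL34a had 2875, 2755 and 3043 normalized counts in KahΔATG, 3272, 3270 and 3302 in KahΔZnF and 3549, 3275 and 3235 in w1118. Like its partner RpL34b (-0.29 ± 0.06, adjusted p 0.0025, limma), it was lower in KahΔATG, with -0.21 ± 0.07 (SE, adjusted p 0.031), and its share of the pair overlapped between all genotypes, with 12.5% ± 0.41 in KahΔATG, 12.8% ± 0.25 in KahΔZnF and 11.8% ± 0.67 in w1118 (SD, n = 3 each). RpL37b and RpS10a, with 12 to 25 and 14 to 30 reads per library, had adjusted p-values of 0.34 or more in both comparisons. RpL37a, its abundant partner, had -0.03 ± 0.06 in KahΔATG and 0.07 ± 0.08 in KahΔZnF. At this depth differences in RpL37b and RpS10a were not detectable.

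**Figure D3:**
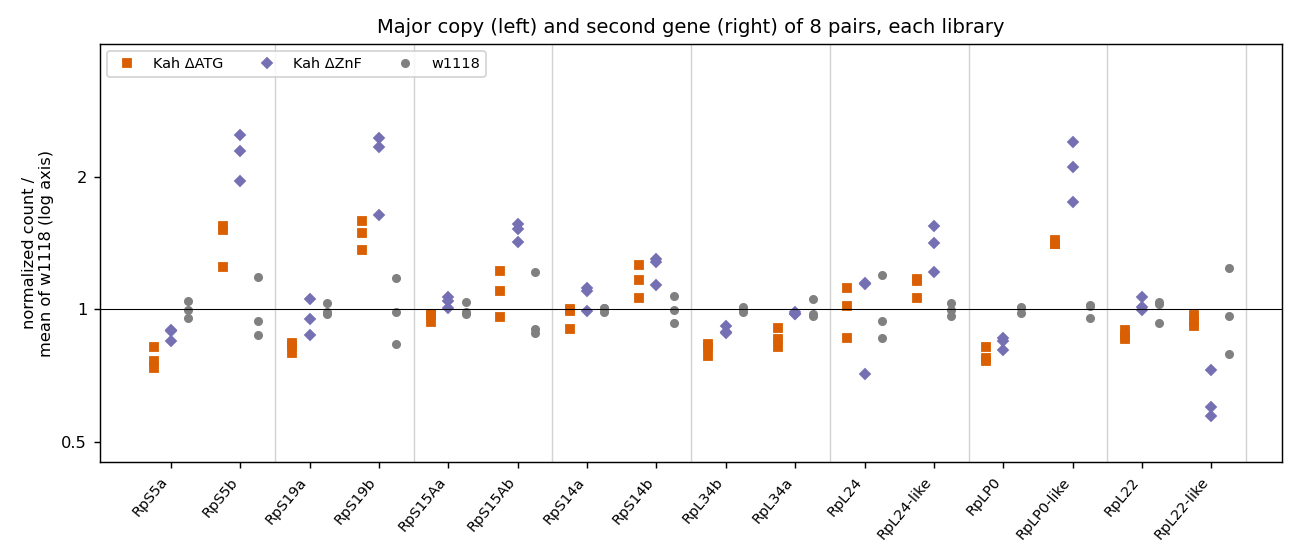
Normalized count of each library divided by the w1118 mean of the gene (y axis, log scale) for 8 pairs, with the major copy left and the minor or -like gene right. Squares are KahΔATG, diamonds KahΔZnF and circles w1118. RpS5b, RpS19b and RpLP0-like lie above the control in all 6 mutant libraries, their major partners RpS5a and RpLP0 lie below it, and RpL22-like lies below it in KahΔZnF.

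RpLP0-like had 1761, 1762 and 1802 normalized counts in KahΔATG, 2189, 2629 and 3003 in KahΔZnF and 1283, 1271 and 1199 in w1118. The 3 genotypes were fully apart, in the order KahΔZnF, KahΔATG, w1118. The log2 fold change was 1.05 ± 0.11 (SE, adjusted p 1.3e-05, limma) in KahΔZnF and 0.51 ± 0.06 (adjusted p 0.00018) in KahΔATG, while RpLP0 was lower in both. RpLP0-like reads were 6.45 to 6.78% of those of both genes in KahΔATG, 7.84 to 9.89% in KahΔZnF and 3.61 to 3.92% in w1118. Its exons overlap those of Jra on the other strand.

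RpL24-like had 5437, 4996 and 5511 normalized counts in KahΔATG, 5723, 6651 and 7246 in KahΔZnF and 4858, 4542 and 4693 in w1118, again with no overlap between the groups. Its log2 fold change was 0.47 ± 0.09 (SE, adjusted p 0.001, limma) in KahΔZnF and 0.18 ± 0.06 (adjusted p 0.036) in KahΔATG, while RpL24 had -0.01 ± 0.18 and 0.01 ± 0.14. With the mitochondrial division in the model the KahΔATG value of RpL24-like was 0.06 and did not pass (adjusted p 0.56), while RpLP0-like kept 0.37 (adjusted p 0.0046).

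RpL22-like was the one RP gene called lower. It had 44.8, 45.9 and 47.4 normalized counts in KahΔATG, 35.5, 29.3 and 28.0 in KahΔZnF and 47.1, 38.6 and 60.6 in w1118. The KahΔZnF libraries lay below both other groups by a few reads, and the log2 fold change was -0.62 ± 0.23 (SE, adjusted p 0.034, limma). The call was lost by DESeq2, with a pseudocount of 5 and without any of KahΔZnF replicate 2, KahΔZnF replicate 3, w1118 replicate 1 or w1118 replicate 3. RpL22 itself had 0.04 ± 0.08 in KahΔZnF and in KahΔATG -0.18 ± 0.06 (adjusted p 0.034), or -0.11 (adjusted p 0.14) with the mitochondrial division in the model.

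A further pattern among the RP genes followed the mitochondrial share of the libraries within a genotype. RpL38, whose mouse counterpart is known for skeletal patterning defects when mutated, had 27213, 22863 and 27919 normalized counts in KahΔATG, 15049, 23656 and 22940 in KahΔZnF and 34207, 21614 and 23001 in w1118. The libraries that stand out are KahΔZnF replicate 1 on the low and w1118 replicate 1 on the high side. The log2 difference of mitochondria-rich from mitochondria-poor libraries was 0.63 within KahΔZnF and 0.62 within w1118. RpL24 had 0.68 and 0.41, and RpLP2 had 0.77 and 0.32.

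Over the 78 major copies, 13 exceeded 0.2 in both genotypes, which is 16.7% against 7.83% of all genes tested. These are descriptions with 1 or 2 libraries on each side. RpL27A, RpL36, RpL21, RpL23, RpS23 and RpS9 were among the others. RpL36A, RpL40 and RpLP0, lower in both mutants, did not follow the division in both genotypes.

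Comparisons within the libraries of one side are given as values only, since w1118 has 1 library on the rich side and KahΔZnF 1 on the poor side. Among the mitochondria-rich libraries, KahΔATG differed from w1118 replicate 1 by a median of -0.18 over the major copies, with 9 of 78 positive, and KahΔZnF from KahΔATG by 0.19, with 76 of 78 positive. KahΔZnF differed from w1118 by a median of 0.03 on the rich side and -0.06 on the poor side. With the division added to a model of the 9 libraries, an alternative chosen after the data were seen, the KahΔATG median was -0.22, with 2 of 78 positive, RpS3A and RpS9, and 41 major copies were lower and 0 higher at the adjusted p limit (limma). RpL38 then had -0.41 in KahΔATG (adjusted p 0.0019) and -0.56 in KahΔZnF (adjusted p 1.6e-05), where the model without the division gave 0.02 and -0.35 (adjusted p 0.94 and 0.14). What divides the libraries was not tested.

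**Figure D4:**
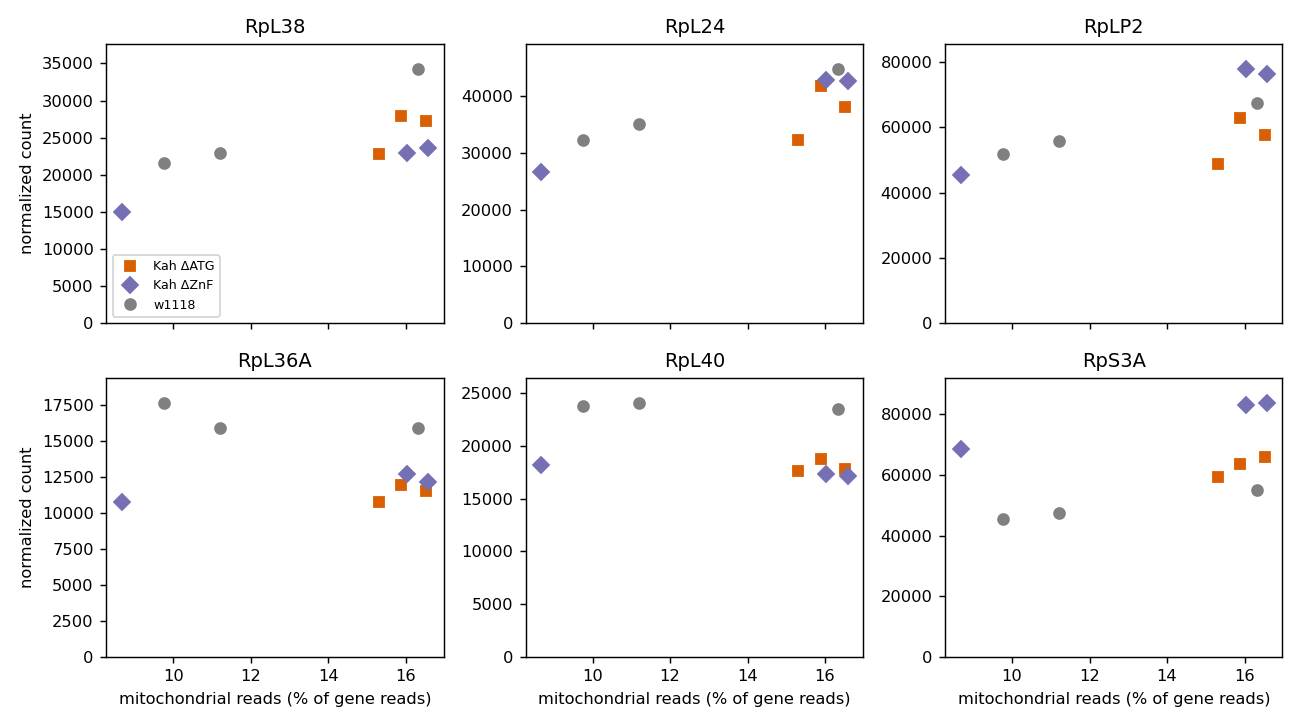
Normalized counts (y axis, from 0) of RpL38, RpL24, RpLP2, RpL36A, RpL40 and RpS3A against the mitochondrial share of gene reads in percent (x axis) in each of the 9 libraries. Squares are KahΔATG, diamonds KahΔZnF and circles w1118. RpL38, RpL24 and RpLP2 are higher at 15.3 to 16.6% than at 8.67 to 11.2% within KahΔZnF and w1118, whereas RpL36A and RpL40 separate the mutants from w1118 on both sides.

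The genes that make and serve the ribosome were compared with its own proteins. The shares of all genes tested, against which the counts of each list stand, were 14.7% called higher and 10.6% lower in KahΔATG and 23.8% and 25.5% in KahΔZnF. At an unadjusted p of 0.05 by limma, 3142 of 10972 genes were higher and 3102 lower in KahΔATG, and 4007 and 3955 of 10957 in KahΔZnF. Of 19 ribosome biogenesis factors, 4 (21.1%) were called higher in KahΔATG and 9 (47.4%) in KahΔZnF, and 0 lower in either, with medians of 0.18 and 0.57. edgeR and DESeq2 gave the same numbers, and at an unadjusted p of 0.05 by limma 2 were lower in KahΔATG and 0 in KahΔZnF. Between the mutants, all 19 were higher in KahΔZnF than in KahΔATG in sign, with a median of 0.35. At the adjusted p limit 18 of them (94.7%) were higher, against 27.4% of all genes tested. Only NHP2, a component of H/ACA particles, was called between the mutants (0.60 ± 0.07), which is 5.26% against a background of 5.72%, and edgeR and DESeq2 called 0. The largest values were those of mbm, a nucleolar protein needed for ribosome assembly in neuroblasts. It had 2217, 2007 and 2028 normalized counts in KahΔATG, 2708, 2727 and 2841 in KahΔZnF and 1120, 1030 and 1057 in w1118, a log2 fold change of 0.97 ± 0.07 (SE, adjusted p 6.8e-06, limma) in KahΔATG and 1.37 ± 0.08 (adjusted p 1.8e-07) in KahΔZnF. The lowest was CG7637, with -0.32 ± 0.14 and -0.06 ± 0.14, which did not pass. Of 6 RNA polymerase I genes, 0 were called in either mutant by limma, edgeR or DESeq2, with medians of 0.00 and 0.15, and at an unadjusted p of 0.05 by limma 0 passed in KahΔATG and 2 were higher in KahΔZnF.

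Among 23 initiation factors, 2 (8.70%) were called higher in KahΔATG and 5 (21.7%) in KahΔZnF, both under the background, and 0 lower, with medians of 0.00 and 0.28 and 12 and 20 positive values. edgeR and DESeq2 gave the same numbers, and at an unadjusted p of 0.05 by limma 2 were lower in KahΔATG and 1 in KahΔZnF. eIF3a, the largest scaffold subunit of eIF3, had the highest called value, with 0.63 ± 0.06 in KahΔATG and 1.06 ± 0.08 in KahΔZnF (SE, adjusted p 2.4e-05 and 9.5e-07, limma), and eIF3j the lowest, with -0.23 ± 0.06 and -0.18 ± 0.07. eIF4B had a larger value in KahΔATG that did not pass (0.73 ± 0.41, adjusted p 0.17). Of 7 elongation factors, 0 were called in KahΔATG by limma, edgeR or DESeq2 (4 higher and 3 lower at an unadjusted p of 0.05 by limma). In KahΔZnF 2 were called higher (1 by edgeR and 2 by DESeq2), eEF1delta (0.80 ± 0.08) and eEF1beta (0.60 ± 0.08), which recharge eEF1alpha with GTP. The abundant eEF1alpha1 was at -0.42 ± 0.07 in KahΔATG (adjusted p 0.0013) and -0.16 ± 0.10 in KahΔZnF (adjusted p 0.17). Of 5 other partners of the ribosome, Tctp was called higher in KahΔZnF, with 1.08 ± 0.10, and Nacalpha, part of the nascent chain complex, was lowest, with -0.37 ± 0.07 in KahΔATG and -0.29 ± 0.08 in KahΔZnF.

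Of 11 growth regulators and factors known to act on RP genes, 2 (18.2%) were called higher in KahΔATG, and 3 (27.3%) higher and 2 (18.2%) lower in KahΔZnF, near the background. M1BP, which binds many RP gene promoters in the fly, had 2085, 1967 and 1895 normalized counts in KahΔATG, 2638, 2818 and 3066 in KahΔZnF and 1062, 949 and 902 in w1118, and was higher by 1.04 ± 0.08 (SE, adjusted p 1.1e-05, limma) and 1.55 ± 0.09 (adjusted p 2.8e-07). The S6 kinase gene S6k had the lowest value in KahΔATG, -0.47 ± 0.08 (adjusted p 0.0015). Xrp1, the transcription factor that acts in cells with a reduced RP gene dose, was lowest in KahΔZnF, with 4632, 4076 and 3802 normalized counts against 7462, 9294 and 10119 in w1118 and a log2 fold change of -1.09 ± 0.12 (adjusted p 1.5e-05), and it had -0.13 ± 0.10 in KahΔATG (adjusted p 0.3). Between the mutants Xrp1 was lower in KahΔZnF by -0.96 ± 0.08 (adjusted p 6.5e-06), and Myc, a known driver of ribosome synthesis, was higher in KahΔZnF by 0.68 ± 0.08 (adjusted p 6.2e-05), with -0.45 ± 0.08 in KahΔATG and 0.23 ± 0.09 in KahΔZnF against w1118.

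As a comparison with other large complexes, the 72 mitochondrial ribosomal proteins had medians of -0.17 in KahΔATG and -0.11 in KahΔZnF, with 2 (2.78%) and 4 (5.56%) called lower, under the backgrounds of 10.6% and 25.5%. With the fold limit dropped, 38.9% of them were lower in KahΔATG and 36.1% in KahΔZnF (limma), against backgrounds of 24.7% and 35.3%. The shares of the major cytosolic copies were 43.6% and 14.1%. At that limit 6.94% and 13.9% of the mitochondrial ribosomal proteins were higher, against 26.1% and 35.3%. In KahΔZnF 1 of them was called higher, and in KahΔATG 0 were by limma, edgeR or DESeq2 (5 at an unadjusted p of 0.05 by limma). The 35 proteasome subunit genes tested, of 44 listed, had medians of 0.22 and 0.54, with 10 (28.6%) and 17 (48.6%) called higher, against backgrounds of 14.7% and 23.8%, and 0 lower. By edgeR 9 and 16 and by DESeq2 9 and 17 proteasome genes were called higher, and 0 were lower at an unadjusted p of 0.05 by limma. The cytosolic RP medians of -0.14 and 0.00 lay nearer to those of the mitochondrial ribosome.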

How the data were processed

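RNA-seq of whole embryos was deposited as 1 table per mutant. Per the submitters' processing notes, HISAT2 2.0.5, featureCounts 1.5.0-p3 and DESeq2 1.20.0 were used. The deposited signal is the reads on a gene divided by a size factor of the library, so it is a normalized count. Dividing by the value of 1 read gave whole reads for 100% of values above 0 (tolerance 0.001), and the w1118 reads were equal in both tables for all 14306 shared genes. The deposited columns of log2 fold changes and p-values hold the authors' own comparisons and were not used. All columns with values of single libraries were used.

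Each mutant was compared with w1118 within its table by limma 3.58.1 (R 4.3.3) with a mean-variance trend on log2(value + 1), for genes reaching 10 in 3 or more libraries. The mutants were compared on recovered reads of both tables, scaled together by size factors. edgeR 4.0.16 and DESeq2 1.42.0 on recovered reads were alternatives. For KahΔATG edgeR called 1593 genes higher and 1207 lower and DESeq2 1586 and 1145, and for KahΔZnF edgeR called 2525 and 2883 and DESeq2 2543 and 2764. Other scalings, pseudocounts, filters, a replicate block and leaving out each library were also tried. The fits were tested on simulated data with the same dispersion for all genes and no division of the libraries. At the adjusted p limit, limma, edgeR and DESeq2 recovered 93 to 98% of changes of 2.0 fold. They recovered 70 to 80% of changes of 1.5 fold. The real replicates spread more, so these shares need not hold for them. No pair of replicates agreed within counting error (chi-square divided by its degrees of freedom ran between 5.19 and 67.0), and none was merged.

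Named RP genes were the 5 highest and 5 lowest major copies of each comparison, all paralogs and the 5 most abundant per length, and in the related lists the genes with the largest rise and fall. RpLP1, RpS30, RpS10b and the genes of the mitochondrial division were named after their values were seen. The members and lists were chosen with earlier results of these data known. Coordinates of 84 RP genes equal those of the Ensembl BDGP6 annotation, and 30 RP genes overlap an exon of another gene.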

Additional observations from a re-analysis of the deposited data

Results flagged for a closer look

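RpS5b stood out because the 2 mutants differed from each other in it by a direct test. Its level in KahΔZnF exceeded that in KahΔATG by 0.65 on the log2 scale (SE 0.10, adjusted p 0.00031, limma), and all 3 KahΔZnF libraries lay above all 3 KahΔATG libraries. Among the mitochondria-rich libraries alone the difference was 0.74. The 2 differences from w1118, 1.18 in KahΔZnF and 0.53 in KahΔATG, share the control libraries, and against the single w1118 library of the rich side they were 1.01 and 0.27.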

How the results depend on the processing

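In KahΔATG, the count of RP genes called higher was 0 to 1 without single libraries and 6 with no fold limit, and of those called lower 1 with library totals and 35 with no fold limit. The median of the major copies was -0.22 with library totals and -0.22 with the mitochondrial division, which left 2 of 78 positive, against 17, and turned RpL24 (-0.36), RpL38 (-0.41), RpL36, RpL41, RpL21 and RpL27A, among others, negative. In that model RpS3A, RpS19b, RpS14b, RpL24-like, RpL3 and RpL22 lost the adjusted p limit in KahΔATG. In KahΔZnF, the count called higher was 3 with library totals, with totals without mitochondrial genes and with the mitochondrial division, 15 with no fold limit and 4 to 8 without single libraries. The count called lower was 0 by DESeq2, with a pseudocount of 5, with no filter, with a filter of 50, with the replicate block and with the mitochondrial division, 2 with library totals, 12 with no fold limit and 0 to 1 without single libraries. The KahΔZnF median was -0.11 with library totals, -0.0914 with totals without mitochondrial genes and -0.0241 to 0.0647 without single libraries. Between the mutants, the count called higher was 0 with totals without mitochondrial genes, 2 with no filter, 3 with the mitochondrial division, 24 with no fold limit and 0 to 3 without single libraries. The count called lower was 1 by edgeR, with TMM, library totals, totals without mitochondrial genes, size factors without RP genes, the mitochondrial division and no fold limit, and 0 to 1 without single libraries. The median was 0.0894 with totals without mitochondrial genes. At the adjusted p limit alone, 3 to 49 major copies were higher between the mutants without single libraries, against 18.

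Replicate numbers did not pair the libraries in the same way in both mutants. Deviations of same-numbered libraries correlated by 0.25, 0.09 and 0.12 between KahΔATG and w1118 and by -0.26, -0.10 and -0.10 between KahΔZnF and w1118. With the replicate block the calls were 5 higher and 0 lower in KahΔZnF, 0 and 0 in KahΔATG and 1 and 0 between the mutants. At the adjusted p limit alone (limma), the block gave 5 major copies higher and 36 lower in KahΔATG, against 1 and 34 without it. Of all 10972 genes tested there, 3149 were higher and 3133 lower with the block, against 2862 and 2710. In KahΔZnF the block gave 5 and 6 major copies, against 9 and 11, and the counts of all genes fell too.

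Depth limited RpS10a, RpS28a, RpS28-like, RpL7-like, RpL37b and RpL22-like, at 62 reads or fewer per library. The fold limit of 1.5 decided most counts, because the major copies differed by less than it.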
